A study of Mus musculus with 2 samples.

Results

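Transcripts of the Wnt pathway were compared between mouse embryonic fibroblasts (MEFs), connective tissue cells grown from embryos, labelled as lacking Lats2 (KO) and MEFs labelled as wild type (WT). Lats2 is a kinase of the Hippo pathway. The genes were selected by a rule on gene names, written with earlier results of these data known: every probe of the array, control spots aside, whose gene name is a Wnt ligand, a Frizzled receptor, Lrp5 or Lrp6, an R-spondin, an Sfrp or Dkk antagonist, Axin1, Axin2, Lef1 or Tcf7. This gave 47 genes with 65 probes, of 27579 gene names and 41174 probes in all. They comprised 19 ligands, 12 receptors, 4 R-spondins, 8 secreted antagonists, 2 scaffold proteins and 2 nuclear factors.

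Wnt proteins are secreted lipid-modified signals that bind Frizzled receptors together with the co-receptors Lrp5 or Lrp6. In the canonical branch this disables a complex built on Axin that marks beta-catenin for destruction, and beta-catenin then acts in the nucleus with factors of the TCF/LEF family. R-spondins raise the number of receptors at the cell surface, whereas Sfrp and Dkk proteins hold the ligands or the co-receptors back. In fibroblasts and other mesenchymal cells the pathway is known for its part in skeletal, limb and adipose development.

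Both RNAs came from untreated cells of the C57BL/6J strain, one labelled LATS2-/- and the other LATS2+/+ (written LAT2 in some label fields). They were hybridised together to 2 two-colour Agilent arrays, with the KO RNA in Cy5 (red) on array 1 and in Cy3 (green) on array 2. The labels name no embryo, litter, passage or separate RNA preparation, so the pair of arrays was read as a dye swap of the same RNAs, with 1 replicate of each genotype. No test between genotypes was therefore possible, and the spread given is that between the arrays. Values are log2 ratios of the RNA labelled KO over the RNA labelled WT after background correction and normalisation within each array. For probes above background in both RNAs, log2 ratios had an SD between arrays of 0.14, or 0.10 for the mean of both. A gene was called when it was at least 2-fold higher, or at least 2-fold lower, on each array and above background, by the flag of the scanner software, on both arrays in the RNA where it was brighter. Where a gene had several probes, its brightest probe stood for it.

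The RNA labelled KO still gave signal for Lats2. All 4 Lats2 probes were above background in both RNAs, 3 of them at 0.56 to 0.63 and the other at -0.35, so the genotype labels could not be checked by transcript level. Which part of the gene was deleted relative to the probes was not analysed here. As a check of the cell type, all 11 fibroblast markers measured were above background in at least 1 RNA. Vim met this only in the RNA labelled WT, with dim intensities of 130 and 156 there against 74.8 and 79.2 in the RNA labelled KO. Of the 11 markers, 1 was called (Postn, which encodes the matrix protein periostin, at -1.69), and their median was -0.41. Their summed intensity was 144500 and 136900 in the RNA labelled KO and 212400 and 207600 in the RNA labelled WT, a sum over unlike probes in which bright ones weigh most. Without Postn it was 121914 and 117008 against 139740 and 143030, and Fn1, a matrix gene, ran the other way (0.81 and 0.98). Among 5 adipocyte markers, Pparg (2.83) and Lpl (2.78) were called higher, Fabp4 was at least 1.95-fold higher and above background only in the RNA labelled KO, and Adipoq and Plin1 were not above background in either RNA, with summed intensities of 5465 and 4795 against 890.5 and 915. The part of these shifts in the results below was not tested. Fewer cells of a type and less RNA per cell cannot be told apart in such bulk samples.

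The RNA labelled KO held less of 2 R-spondins, 2 Frizzled receptors and 1 ligand, and more of 1 ligand. Called lower were Rspo1 (19.0-fold, and 36.5-fold by Feature Extraction's own ratio), Fzd1 (3.77-fold), Rspo2 (2.92-fold), Fzd7 (2.59-fold) and Wnt10b (at least 2.31-fold), and called higher was Wnt4 (2.52-fold). Of the 47 genes, 6 were thus called (12.8%), against 3.19% of all gene names. The calls were 5 lower (10.6%, against 1.49% of all) and 1 higher (2.13%, against 1.7% of all). The median over the 47 genes was -0.01, and that over all gene names was 0.00. By probe, 7 of 65 were called (10.8%), against 2.69% of all probes.

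Of the 47 genes, 28 were above background on both arrays in at least 1 RNA and 25 in both. The 6 called genes made up 21.4% of the 28, beside 5.54% of the 15877 gene names that met the same condition. By direction, 17.9% were called lower, beside 2.59%, and 3.57% higher, beside 2.95%. These shares describe the genes only, since Wnt10b, Fzd10 and Sfrp1 met the condition in just 1 RNA. Of the 28, 16 had a mean ratio below 0 by over 0.14, the SD between arrays (57.1%, beside 34.0% of the 15877), 7 above 0 by over that SD (25.0%, beside 32.6%), and 5 lay within it, with a median of -0.18 beside 0.00 for the 15877.

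**Figure D1:**
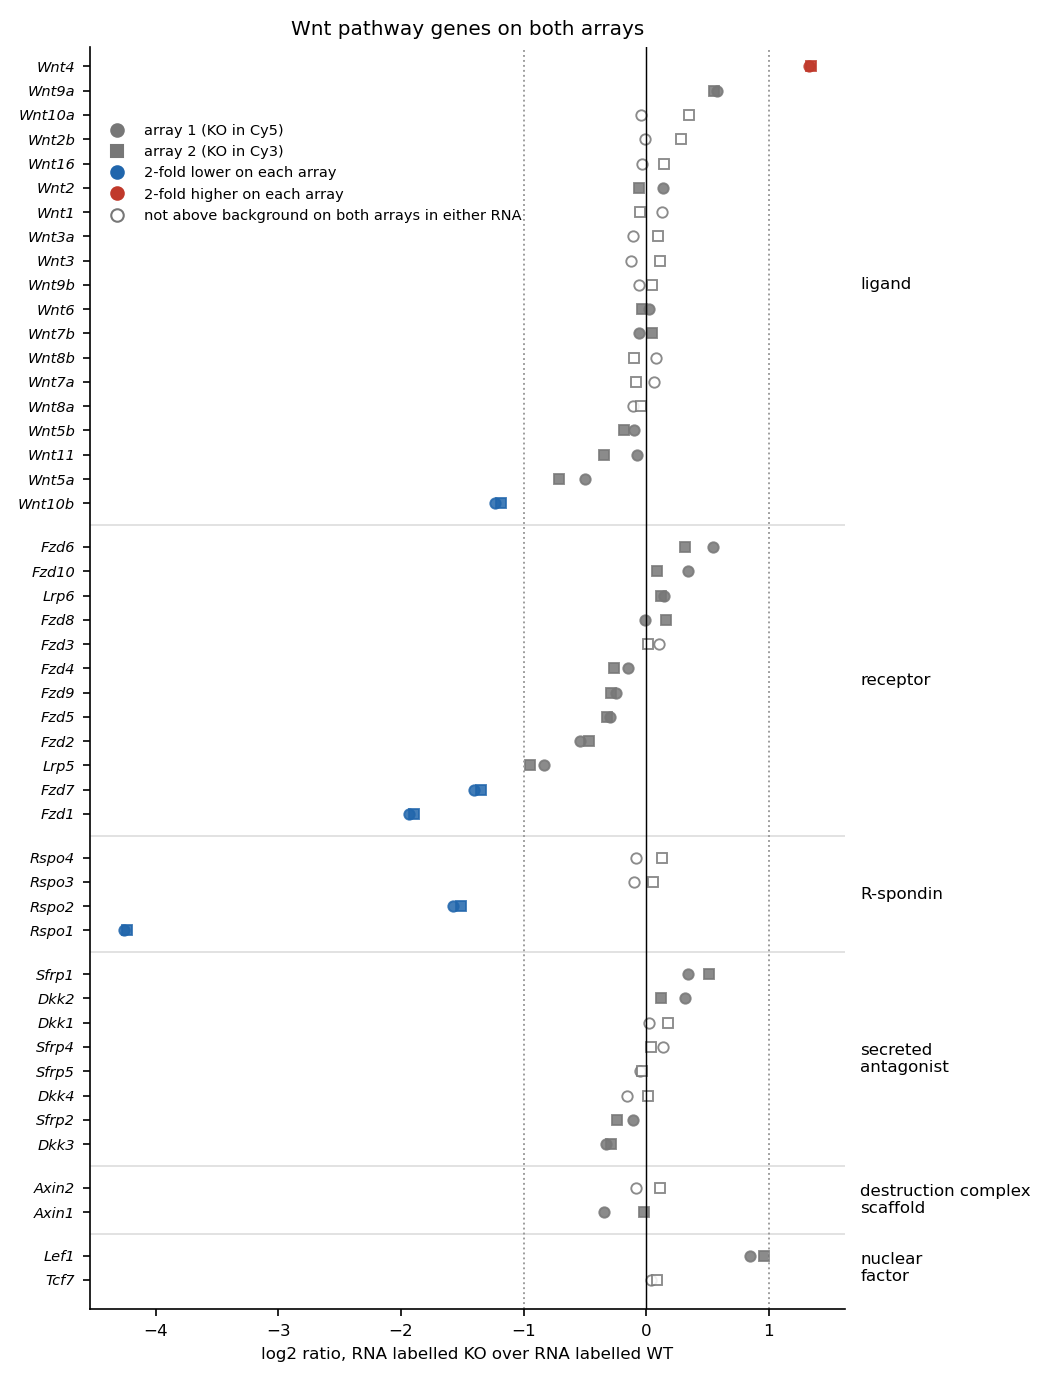
Log2 ratio of the RNA labelled KO over the RNA labelled WT for the 47 genes, by role, with a circle for array 1 and a square for array 2. Open symbols are genes not above background on both arrays in either RNA, and dotted lines mark 2-fold; Rspo1 lies farthest from 0, at -4.26 and -4.23.

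The R-spondins, secreted amplifiers of Wnt signalling, held the largest difference among the 47 genes. Rspo1 read 130 units in the RNA labelled KO and 2486 in the RNA labelled WT on array 1, and 144 and 2710 on array 2 (normalised intensity in arbitrary units, which cannot be compared between probes). The level in the RNA labelled KO was 5.27% of that in the RNA labelled WT, with log2 ratios of -4.26 and -4.23. The size rested on the background step, with a mean of -4.78 at a smaller offset and -5.19 by the ratio of Feature Extraction. Rspo1 ranked 5th from the bottom among the 15877 gene names above background. Its probe lies at chr4:124511330-124511389 on the plus strand (mm8 build, as in the array files). For Rspo2 the RNA labelled KO read 1563 and 1543 units and the RNA labelled WT 4667 and 4397, or log2 ratios of -1.58 and -1.51. The probe, at chr15:42851255-42851314 on the minus strand, is 53483 bases from another Rspo2 probe that was not above background in either RNA (0.05). When the probes were averaged, Rspo2 came to -0.75 and was no longer called. Rspo3 (-0.02) and Rspo4 (0.02) were not above background in either RNA.

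**Figure D2:**
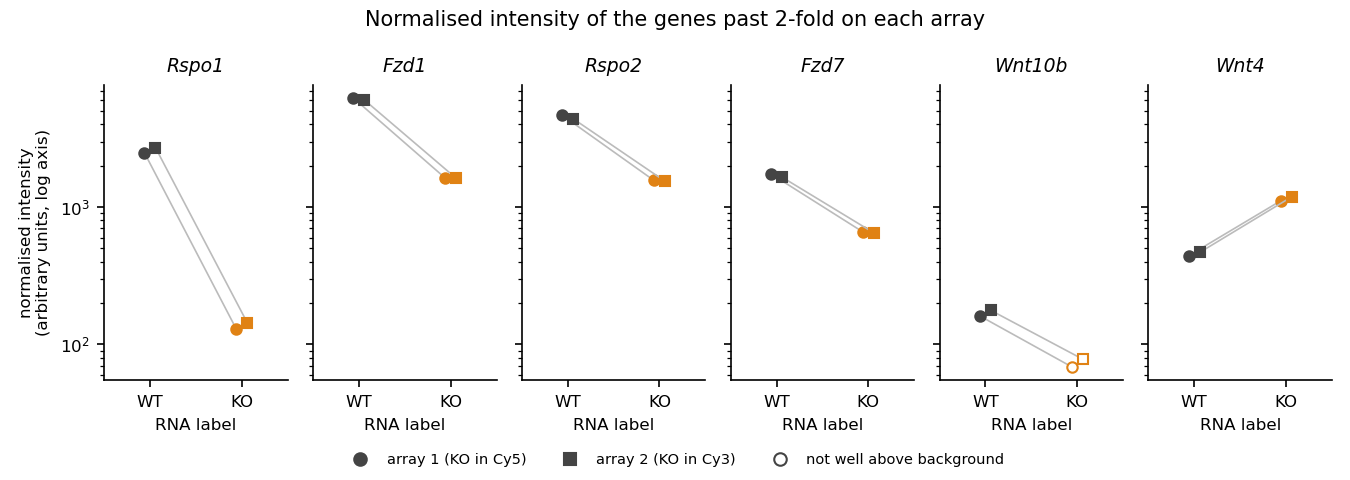
Normalised intensity (arbitrary units, log axis) of the 6 called genes in the RNA labelled WT (dark) and the RNA labelled KO (orange), with a circle for array 1, a square for array 2 and a line joining the RNAs of an array. In each panel the RNAs stand apart on both arrays, and open symbols (Wnt10b, RNA labelled KO) are not above background; heights are not comparable between panels.

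Among the 10 Frizzled receptors, the closely related Fzd1, Fzd2 and Fzd7 were all lower in the RNA labelled KO, with a median of -1.38. Fzd1 read 1630 and 1621 units in the RNA labelled KO against 6233 and 6029 in the RNA labelled WT, which gave -1.94 and -1.89 (probe at chr5:4760009-4760068). Fzd7 read 660 and 649 units against 1743 and 1651, which gave -1.40 and -1.35 (chr1:59430894-59430953). A dimmer Fzd7 probe 1825 bases away, above background in both RNAs, gave -0.40, and the mean of the 2 probes was -0.89 and not a call. Fzd2 showed the opposite order. Its brightest probe read 4270 and 4583 units against 6218 and 6316 (-0.54 and -0.46) and was not called, whereas a dimmer probe 1432 bases away read 276 and 290 units against 652 and 704 (-1.24 and -1.28) and was called. The direction of Fzd2 and Fzd7 was thus the same on each probe but the size was not.

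The other Frizzled genes lay closer to 0. Fzd6, a receptor known from planar cell polarity, was at 0.54 and 0.31 on the arrays. Fzd5, Fzd9 and Fzd4 were at -0.31, -0.27 and -0.20 (means of both arrays) and Fzd8 at 0.08. Fzd10 was above background only in the RNA labelled KO, at 0.34 and 0.09, or at least 1.16-fold higher on the mean of both arrays. On array 2 this was less than the SD between arrays. A dimmer Fzd10 probe (-0.01) and Fzd3 (0.06) were not above background in either RNA. The co-receptors differed from each other. Lrp5 read 1031 and 999 units in the RNA labelled KO against 1833 and 1927, and its ratios of -0.83 and -0.95 fell short of 2-fold on each array. Lrp6 was at 0.15 and 0.12.

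**Figure D3:**
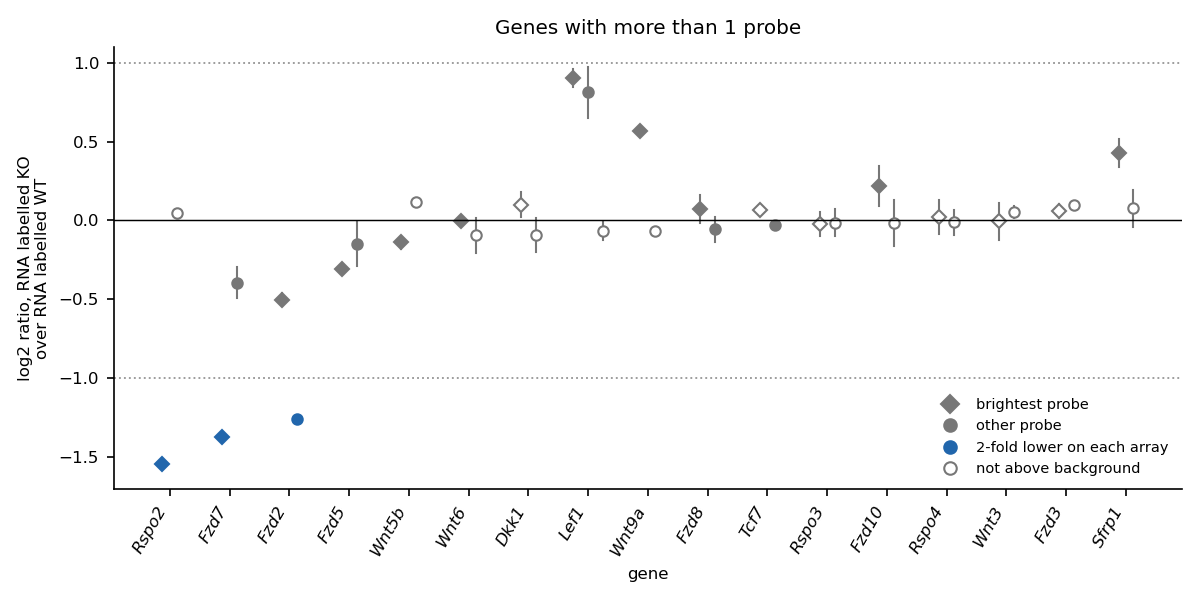
Log2 ratio for each probe of the 17 genes with more than 1 probe; symbols are means of both arrays, whiskers run from array to array, diamonds mark the brightest probe and open symbols probes not above background. Where several probes of a gene were above background, they lay 0.98 apart for Fzd7 and 0.76 for Fzd2, against 0.16 for Fzd5, 0.13 for Fzd8 and 0.09 for Lef1.

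Of the 19 ligands, 9 were above background in at least 1 RNA. Wnt4, a ligand known from kidney and gonad development, was the only gene of the 47 called higher. It read 1110 and 1187 units in the RNA labelled KO against 443 and 468 in the RNA labelled WT, or 1.32 and 1.34. Its probe spans chr4:136567851-136568419, more than the probe's own 60 bases, so it joins parts that lie apart in the genome. Wnt10b, a ligand known for holding back fat cell formation, read 68.7 and 78.1 units against 161 and 177. It was not above background in the RNA labelled KO and had ratios of -1.23 and -1.18 (probe at chr15:98600121-98600180). Its size depended on the handling of background: Feature Extraction's own ratio gave -4.41.

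Wnt9a read 1141 and 1177 units against 763 and 802, or 0.58 and 0.55. A dimmer Wnt9a probe, not above background in either RNA, was at -0.07, and averaging the probes gave 0.25. Wnt5a, a main ligand of the branches that do not use beta-catenin, read 548 and 494 units against 774 and 810, or -0.50 and -0.71. Neither reached 2-fold on an array, though each differed by more than the SD between arrays. Wnt11 and Wnt5b were at -0.21 and -0.14. Wnt2 (0.04), Wnt6 (-0.01) and Wnt7b (-0.01) were measured above background in both RNAs, and their means were smaller than the SD between arrays. The remaining 10 ligands were not above background on both arrays in either RNA, with means from -0.07 to 0.15. They were Wnt1, Wnt2b, Wnt3, Wnt3a, Wnt7a, Wnt8a, Wnt8b, Wnt9b, Wnt10a and Wnt16.

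None of the 8 secreted antagonists was called. Dkk2 (0.32 and 0.12) and Dkk3 (-0.33 and -0.28), relatives of the Lrp5 and Lrp6 blocker Dkk1, were above background in both RNAs. Sfrp2, which binds ligands, was at -0.11 and -0.23. Sfrp1 was above background only in the RNA labelled KO, where it read 90.6 and 95.4 units against 71.6 and 66.7. Its ratios were 0.34 and 0.52, or at least 1.34-fold higher on the mean of both arrays. A dimmer Sfrp1 probe, not above background in either RNA, was at 0.08. Feature Extraction's own ratio put Sfrp1 at 2.78 and Fzd10 at 1.29, so both counted as higher there. Dkk1, Dkk4, Sfrp4 and Sfrp5 were not above background on both arrays in either RNA, with means from -0.07 to 0.10.

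Inside the cell, Axin1, the scaffold of the destruction complex, was at -0.34 and -0.02. Axin2, a scaffold that is also a common readout of beta-catenin activity, was not above background in either RNA (0.02). Lef1, a nuclear partner of beta-catenin, read 627 and 652 units in the RNA labelled KO against 348 and 335, or 0.85 and 0.96. A dimmer Lef1 probe above background gave 0.97 and 0.65, and another, not above background, gave a mean of -0.07. Lef1 and Lrp5 came nearest to 2-fold without passing it, and of the called genes Wnt10b and Wnt4 lay nearest to it. The brightest probe of Tcf7 was above background on only 1 of 2 arrays (0.07), and its dimmer probe, above background on both, was at -0.03.

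**Figure D4:**
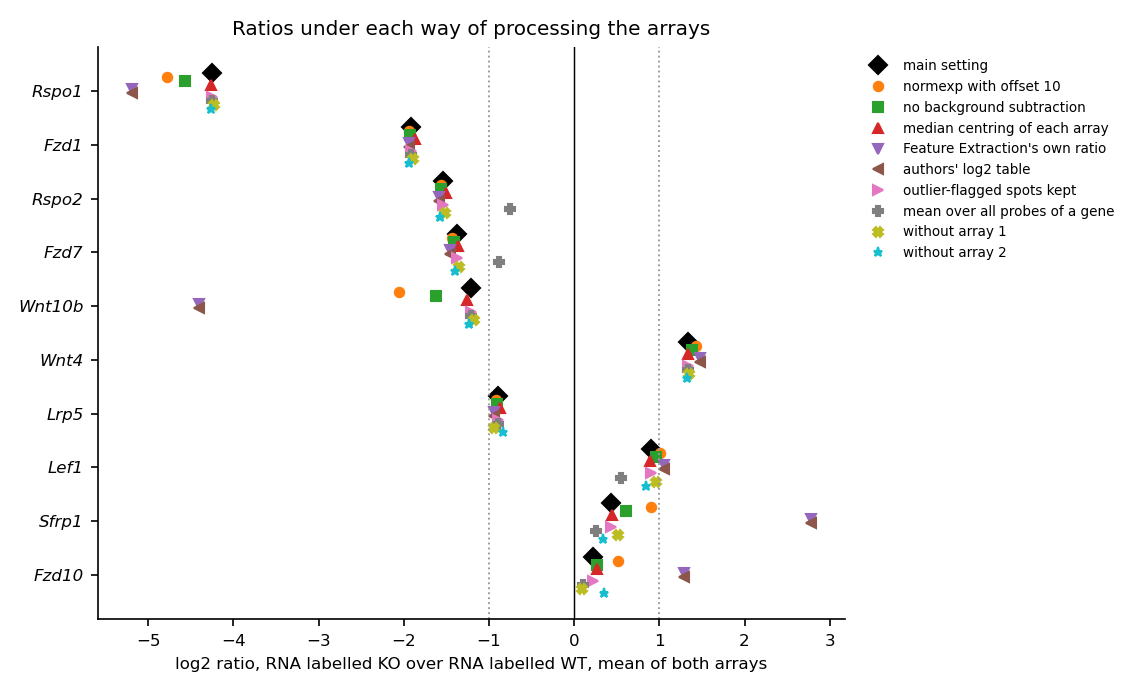
Log2 ratio, mean of both arrays, of the 6 called genes and of Lrp5, Lef1, Sfrp1 and Fzd10 under each way of processing the arrays, with 2-fold marked by dotted lines. Fzd1 stayed between -1.94 and -1.87, whereas Rspo1 ran from -5.19 to -4.23, Wnt10b from -4.41 to -1.18 and Sfrp1 from 0.25 to 2.78.

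Promoter sequence was available for 5 of the 6 called genes and for 30 of the 47 in all, in 37 windows of 250 bases before an annotated start (RefSeq, GRCm38.p6 build). The sequences are shown because their genes moved past 2-fold, with every CG step in capitals. Clusters of CG at a start are where Polycomb complexes, the subject of the study, are usually found. Polycomb binding was not measured on these arrays, and a link between CG steps and the ratios was not tested. Bases inside the annotated gene, present for Rspo1 and Wnt10b, were cut off, which left 221 and 194 bases. The windows were chr4:124986180-124986400 (plus strand) for Rspo1, chr5:4758217-4758466 (minus) for Fzd1, chr1:59481897-59482146 (plus) for Fzd7, chr15:98778207-98778400 (minus) for Wnt10b and chr4:137277385-137277634 (plus) for Wnt4.
Rspo1: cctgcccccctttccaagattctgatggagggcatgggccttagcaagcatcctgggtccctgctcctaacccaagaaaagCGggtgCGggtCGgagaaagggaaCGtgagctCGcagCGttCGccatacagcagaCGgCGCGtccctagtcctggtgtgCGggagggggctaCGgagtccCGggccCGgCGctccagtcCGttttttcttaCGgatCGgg
Fzd1: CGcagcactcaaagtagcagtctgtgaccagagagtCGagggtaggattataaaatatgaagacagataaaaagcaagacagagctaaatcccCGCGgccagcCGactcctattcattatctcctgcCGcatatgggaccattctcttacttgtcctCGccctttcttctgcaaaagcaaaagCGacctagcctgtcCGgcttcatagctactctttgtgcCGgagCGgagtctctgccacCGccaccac
Fzd7: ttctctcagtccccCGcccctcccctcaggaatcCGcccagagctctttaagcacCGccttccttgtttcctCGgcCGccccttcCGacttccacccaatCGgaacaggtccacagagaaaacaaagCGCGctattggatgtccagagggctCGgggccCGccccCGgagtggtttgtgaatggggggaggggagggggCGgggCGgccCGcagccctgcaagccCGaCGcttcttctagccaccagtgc
Wnt10b: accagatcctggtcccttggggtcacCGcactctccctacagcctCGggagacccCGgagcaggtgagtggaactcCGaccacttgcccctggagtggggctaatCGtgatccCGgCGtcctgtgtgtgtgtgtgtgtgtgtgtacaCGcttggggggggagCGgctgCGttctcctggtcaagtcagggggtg
Wnt4: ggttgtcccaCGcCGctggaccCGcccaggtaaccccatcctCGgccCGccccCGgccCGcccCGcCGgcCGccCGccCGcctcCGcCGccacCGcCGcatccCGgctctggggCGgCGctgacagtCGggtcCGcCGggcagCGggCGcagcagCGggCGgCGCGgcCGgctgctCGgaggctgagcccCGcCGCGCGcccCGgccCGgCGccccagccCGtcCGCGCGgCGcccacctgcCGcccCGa

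The printed sequences held 18 CG steps for Rspo1, 12 for Fzd1, 17 for Fzd7, 10 for Wnt10b and 44 for Wnt4. Wnt4, the gene called higher, had the densest window of these, at 85.2% G or C. The median over the 37 windows was 22 CG steps, and that over all 32851 windows of the table was 6. The printed genes called lower, with 10 to 18, lay between these medians. Both medians are of uncut windows of 250 bases, whereas the counts for Rspo1 and Wnt10b are of the 221 and 194 bases printed. The letters CTTTGA, the core of a TCF/LEF site, occurred on either strand in 5 of the 37 windows, about the same share as in all windows (13.8%). Those 5 were of Fzd1, Lef1, Wnt5b, Wnt11 and Dkk1, and in Fzd1 the match began at position -242 from the start. CATTCC, the core of a TEAD site, the factors through which Hippo signalling acts, occurred in 0 of the 37 and in 12.6% of all windows. These shares were not adjusted for base composition, and the 37 windows held more CG steps than all windows (medians of 22 and 6). Whether that lowers the count of such letters was not tested. A match is only a match of letters in this window, and sites elsewhere were not searched.

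Other genes of the pathway were taken from lists. Among 12 other receptors, all above background in at least 1 RNA, 2 were called, both higher and both receptors of R-spondins: Lgr5 (1.47 and 1.34) and Lgr6 (1.47 and 1.71). This is 16.7% of the list, beside 5.54% of all gene names above background. Reck, a membrane protein that takes part in Wnt7 reception and the lowest of the list, ran the other way (-0.97 and -1.40) and missed 2-fold on array 1. Lgr5 read 298 and 245 units in the RNA labelled KO against 107 and 97.2, and Lgr6 269 and 251 against 97.2 and 76.5. Lgr4, the remaining receptor of this kind, was at -0.66. The ligases that R-spondins act on were Znrf3, at -0.08, and Rnf43, above background only in the RNA labelled KO. Rnf43 was at 0.86 and 0.66, or at least 1.70-fold higher on the mean of both arrays. Lgr4, Reck, Rnf43 and Znrf3 were singled out with their values in view. The median of the 12 was 0.00.

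Of 15 other secreted regulators and secretion factors, 1 was called (6.67%, beside 3.19% of all gene names): Gpc3, a cell-surface proteoglycan that binds Wnt, at -3.81 and -3.78. Gpc3 read 106 and 125 units against 1496 and 1717, and the median of the list was 0.01. Among 28 cytoplasmic and nuclear components, all above background in at least 1 RNA, only Tle2, a corepressor that binds TCF/LEF factors, was called (-1.07 and -1.08). That is 3.57%, under the 5.54% of all gene names above background, and their median was -0.09. Ctnnb1, which encodes beta-catenin itself, was at 0.13 and -0.31. None of 11 planar cell polarity genes was called, with a median of -0.31 and a range from -0.73 (Vangl2) to 0.11 (Daam1).

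Of 18 genes known as beta-catenin targets in other settings and reported here, 13 were above background in at least 1 RNA. Fgf18, a secreted growth factor (-1.54 and -1.44), and Apcdd1, a membrane protein that restrains Wnt (-1.03 and -1.32), were called lower. That is 11.1% of the 18, beside 3.19% of all gene names called in either direction and 1.49% called lower. The median of the 18 was 0.00.

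**Figure D5:**
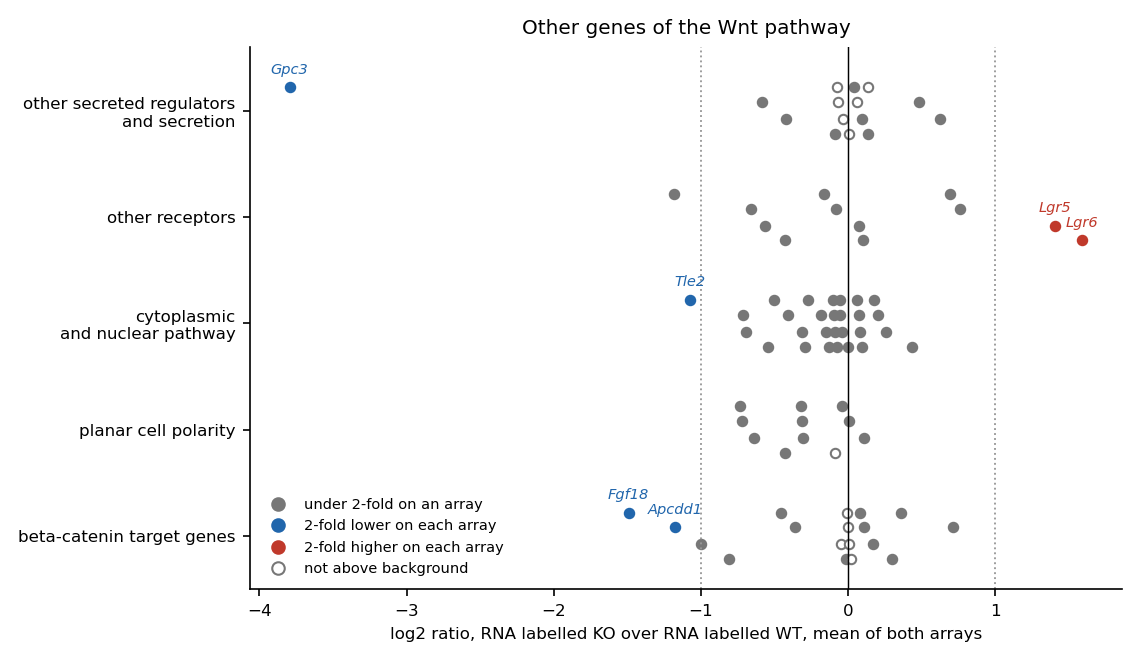
Log2 ratio, mean of both arrays, of the genes in 5 lists of other Wnt pathway members, each point a gene by its brightest probe, with called genes named and open points not above background. Gpc3 stands farthest to the left, at -3.80, and Lgr6 farthest to the right, at 1.59.

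Some of the calls rested on the dye normalisation. With each array centred on its median in place of the normalisation by intensity, the arrays moved apart in opposite directions. Rspo2 then gave -0.69 and -2.31, Fzd7 -0.62 and -2.10, and Wnt4 2.04 and 0.62, so that none of the 3 passed 2-fold on each array. Their means of both arrays were -1.504, -1.36 and 1.33, close to those with normalisation by intensity (-1.54, -1.38 and 1.33). Rspo1 (-3.58 and -4.93), Fzd1 (-1.03 and -2.71) and Wnt10b (-1.13 and -1.39) still passed, Fzd1 by a small margin on array 1. Over all gene names the calls were 469 higher and 411 lower, and 252 and 139 with median centring.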

How the data were processed

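Total RNA was labelled and hybridised to Agilent whole mouse genome arrays and read, per the file headers and the submitters' processing notes, with Agilent Feature Extraction 10.5.1.1. The authors deposited, per spot, mean signals and local background medians as intensity in arbitrary units, and the log10 ratio of Cy5 over Cy3 that Feature Extraction computes. They also deposited a table of log2 ratios, which correlated with the turned Feature Extraction ratio (r = 0.9999 and 0.9996 across probes), so both its columns run KO over WT. The study's methods name the Subio Platform for fold changes; its settings for this table are not given in the sources used here.

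Intensities were background corrected (normexp, offset 50) and normalised by loess within each array with limma 3.58.1 in R 4.3.3. The offset pulls ratios of dim probes towards 0. Of 45018 spots per array, 1639 control spots were left out, as were 390 and 378 spots with an outlier flag. Spots of a probe were averaged, array 2 was turned, and a probe counted as well above background (shortened in the text to above background) when Feature Extraction flagged it so in a share of 0.5 or more of its spots. Channel intensities were taken after loess and Aquantile and include the offset. Where a probe was not well above background in 1 RNA, "at least N-fold" sets the brighter RNA against either the lowest signal of any probe above background or the signal of the probe itself, whichever was higher, per array, with both dye orientations entering. The log2 values of both arrays were averaged, so the ratio on 1 array can be lower than the fold given. The number of arrays limits the precision.

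The 2-fold threshold follows the study's methods, which for KO MEFs also required p under 0.05 by t-test. Here that test was only an alternative. The genes and lists were chosen with earlier results of these data known. Every gene of the 47 was accounted for, and those well above background in at least 1 RNA were given by value. Outside them Lats2 was named and, in each pathway list, the called genes or else the highest and lowest. Ctnnb1, Lgr4, Reck, Rnf43, Znrf3 and the markers Fn1, Vim, Acta1, Fabp4, Adipoq and Plin1 were added with their values in view. 1 gene of the beta-catenin target list is not reported here and is left out of its counts. Lists of epithelial, endothelial, haematopoietic, skeletal muscle, neural and cartilage markers held no called gene, which does not mean no signal. In that order, 3 of 7, 0 of 6, 2 of 6, 1 of 5, 4 of 6 and 4 of 6 were above background in at least 1 RNA. Acta1, of the muscle list, read 11316 and 11537 units in the RNA labelled KO against 9510 and 9497. Of the 65 probes, 58 had an accession in a RefSeq table (GRCm38.p6, used for names and promoters), each with the same symbol. Probe positions within exons or untranslated regions were not analysed here. Calling was tested on simulated data in which only probes above background in both RNAs were changed. The simulation does not cover probes dim in 1 RNA or differences between cultures of a genotype. Tables and plots were made with Python 3.11.15, pandas 2.3.3, numpy 2.4.6 and matplotlib 3.10.9. Alternatives changed the background step, the normalisation, the filters, the probe summary, the threshold and the test, or left out an array.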

Additional observations from a re-analysis of the deposited data

How the results depend on the processing

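Counts of the 47 genes called, 1 higher and 5 lower, were the same without background subtraction, with an offset of 10, with outlier spots kept, with no filter on dim probes, with the 2-fold threshold on the mean of both arrays and by limma over the arrays with Benjamini-Hochberg adjustment. Dropping the filter could add no call here, since those of the 47 genes not above background in either RNA lay from -0.07 to 0.15. The limma count was taken among the genes past 2-fold on the mean of both arrays and removed none, so it is not a separate result. Median centring gave 0 higher and 3 lower, and averaging all probes of a gene 1 and 3. Feature Extraction's own ratio and the deposited log2 table each gave 3 higher and 5 lower, adding Sfrp1 and Fzd10, which are dim in the RNA labelled WT. A threshold of 1.5-fold gave 2 higher and 6 lower, adding Lef1 and Lrp5. Requiring signal in both RNAs removed Wnt10b, leaving 4 lower. The methods' t-test over the 2 arrays gave 1 higher and 5 lower at an unadjusted p under 0.05, and 0 and 0 after Benjamini-Hochberg adjustment over all gene names; these tests compare hybridisations, not genotypes. Leaving out either array gave 1 higher and 5 lower, a median over the 47 genes from -0.0588 to 0.0134 and over the 28 from -0.2081 to -0.1045. The median over the 28 was -0.26 with an offset of 10 and -0.33 with the deposited table and with the ratio of Feature Extraction, the cause of which was not tested. Of 252 recomputed values of the 28 genes, 211 moved by less than the SD between arrays, 35 grew by more and 6 shrank by more. These counts overstate the stability. With outlier spots kept none of the 28 values changed, and averaging probes could not change a gene with 1 probe. The deposited table repeated the values of the Feature Extraction ratio, so these entered again. The sign turned in 4, of genes within 0.08 of 0, and in 0 values of called genes. No paired analysis was possible because the arrays give 1 replicate per genotype. Dim signal in 1 RNA limits the size of Rspo1 (-5.19 to -4.23), Wnt10b, Sfrp1 and Fzd10.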

Other observations

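Several Wnt genes lie next to each other in the mouse genome, and the neighbours were read separately. Wnt10b (-1.21) has Wnt1 beside it, 21.17 kb away between probe starts on chromosome 15, and Wnt1 was at 0.04 and above background on 1 of 2 arrays. Wnt9a (0.57) lies 85.04 kb from Wnt3a on chromosome 11, which was not well above background in either RNA (-0.01). Wnt6 (-0.01) and Wnt10a (0.15) lie 19.27 kb apart on chromosome 1, and Wnt3 and Wnt9b 88.53 kb apart on chromosome 11, neither of the latter well above background.

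The Wnt1 probe was spotted 10 times on each array, which gives its spread within an array. Outlier flags removed 5 of its spots on array 1 and 1 on array 2. The SD between the remaining spots was 0.10 on array 1 and 0.08 on array 2 (log2 scale), and the means of the arrays were 0.13 and -0.05.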
